A study of Mus musculus with 6 samples.

Results

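The rows described here are those of the proteasome in the testes of ScAtrxKO mice. They were taken by their names, as the rows of the normalized table that start with PSMA, PSMB, PSMC, PSMD, PSME, PSMF or PSMG and a digit, which gave 47 of 30774 rows. By known function they held 31 constitutive subunits of the core and of the regulatory particle, 3 immune catalytic subunits (Psmb8, Psmb9 and Psmb10), the thymus subunit Psmb11, the testis subunit Psma8, 4 activators, 1 inhibitor, 5 assembly chaperones and Psmc3ip, a meiotic recombination gene that only shares the start of its name. RNA came from 3 ScAtrxKO and 3 wild-type whole testes of male C57BL/6 mice aged 12 days, with 1 Illumina MouseWG-6 v2 array per sample, a bead array with a single colour. In ScAtrxKO mice the chromatin remodeller Atrx is deleted by a Cre recombinase under the anti-Müllerian hormone promoter, which is active in Sertoli cells, so that germ cells, Leydig cells and other cells of the testis keep the gene. The sources used here do not say whether the wild-type mice carried the floxed allele or Cre. They also do not state that each sample was a separate animal, and p-values therefore cover the spread among these samples, which may be technical.

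The proteasome is the protease that degrades ubiquitin-tagged proteins. Its core is a stack of rings of alpha and beta subunits, of which Psmb5, Psmb6 and Psmb7 cut peptide bonds, and the regulatory particle on its ends recognises, unfolds and feeds in substrates through a ring of ATPases. Interferon induces Psmb8, Psmb9 and Psmb10, which replace Psmb5, Psmb6 and Psmb7 and favour peptides that fit MHC class I, and blood cells carry these subunits without induction. Psma8 replaces Psma7 in the proteasomes of male germ cells in meiosis, and loss of Psma8 in mice stops spermatogenesis.

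Promoter windows of Psmb8, Psmb9 and Psmb5 are shown first, because the interferon-induced subunits and a constitutive counterpart are set against each other below. They are the 250 bases before the RefSeq start on GRCm38.p6, in the direction of the gene, and capitals mark every match to the 5 motifs searched on both strands.

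Psmb8 (chr17:34197945-34198194, plus strand): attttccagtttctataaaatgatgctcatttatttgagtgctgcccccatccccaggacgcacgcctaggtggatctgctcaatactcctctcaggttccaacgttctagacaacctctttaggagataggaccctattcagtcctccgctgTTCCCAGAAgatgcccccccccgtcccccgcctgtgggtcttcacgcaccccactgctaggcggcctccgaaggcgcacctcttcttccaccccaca

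Psmb9 (chr17:34187331-34187580, minus strand): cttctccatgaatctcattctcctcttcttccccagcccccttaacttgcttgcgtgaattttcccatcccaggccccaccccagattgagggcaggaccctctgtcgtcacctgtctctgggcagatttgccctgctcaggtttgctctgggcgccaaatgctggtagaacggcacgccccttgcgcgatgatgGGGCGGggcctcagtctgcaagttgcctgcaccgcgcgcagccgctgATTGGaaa

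Psmb5 (chr14:54617996-54618245, minus strand): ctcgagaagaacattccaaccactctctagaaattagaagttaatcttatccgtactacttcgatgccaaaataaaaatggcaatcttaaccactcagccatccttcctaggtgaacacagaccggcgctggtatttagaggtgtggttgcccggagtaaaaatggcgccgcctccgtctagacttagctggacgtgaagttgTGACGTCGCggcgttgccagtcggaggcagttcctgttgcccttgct

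The Psmb8 window held 1 match, to the gamma-activated site TTCNNNGAA, starting 97 bases before the start. The Psmb9 window held a GC box core (GGGCGG) starting 55 bases before the start and a CCAAT box on the other strand starting 8 bases before it. Both genes lie in the MHC region of chromosome 17. The window of Psmb9 lies head to head with that of Tap1, the neighbouring gene of the MHC class I peptide transporter, and over the full RefSeq windows, which run on past the start, both share 275 bases on opposite strands. The Psmb5 window held an antioxidant response element core (TGACNNNGC) starting 47 bases before the start. Of 39 members with a window, Psmb8 was the 1 member with TTCNNNGAA, which 7.02% of 32851 windows of this length hold. The interferon-stimulated response element, searched as GAAA, any 2 bases and GAAA, was in 3 member windows and in 2.98% of all windows. Among the 25 constitutive genes with a window, 14 (56%) held the GC box core, against 32.7% of all windows, 10 (40%) held CCAAT, against 33.8%, and 4 (16%) held the antioxidant response element core, against 10.2%. A gene was counted if any of its windows matched, whereas the shares over all windows count each window by itself. These kinds of share are therefore not on the same basis. The matches describe letters and are no evidence of binding.

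Each deposited intensity comes with a detection p, and the sources used here do not give how it was computed for a row. It did not follow the intensity across rows. On ScAtrxKO array 1 it was 0.2215 for Psmb3 at an intensity of 2392.7 and 0 for Psmd9 at 83.2. Limma was run on the rows for which 1 or more arrays had a detection p below 0.01. This left 13026 rows and 37 of the 47 members. Differences are ScAtrxKO minus wild-type on the normalized log2 scale, and calls were made at an adjusted p under 0.05 (Benjamini-Hochberg over the 13026 rows). Among the tested members, 2 (5.41%) were higher, Psmb8 and Psmb9, and 2 (5.41%) were lower, Psma8 and Psmg2, while 7.47% of all tested rows (973) were higher and 5.5% (717) were lower. With quantile-normalized log2 intensities, which lack the variance stabilization, the whole-array split was 547 higher and 227 lower. Psma8 was the 1 member that also passed a fold change of 1.5, which 1.02% of all tested rows did as higher and 0.276% as lower. The values of 13 of the 37 members (35.1%) did not overlap between the genotypes, against 33.8% of all tested rows. Both shares of calls and the share without overlap were thus near those of the whole array. The calls fell in the immune, testis and assembly classes, and the immune and assembly classes also held members without a call. Differences between classes were not tested. Between 10493 and 10917 rows were detected per array, and the mean intensity was 349.8, 469.1 and 457.5 on ScAtrxKO arrays 1, 2 and 3 and between 368.1 and 380.7 on the wild-type arrays. Atrx itself was undetected on all 6 arrays and gave no check of the genotypes.

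**Figure D1:**
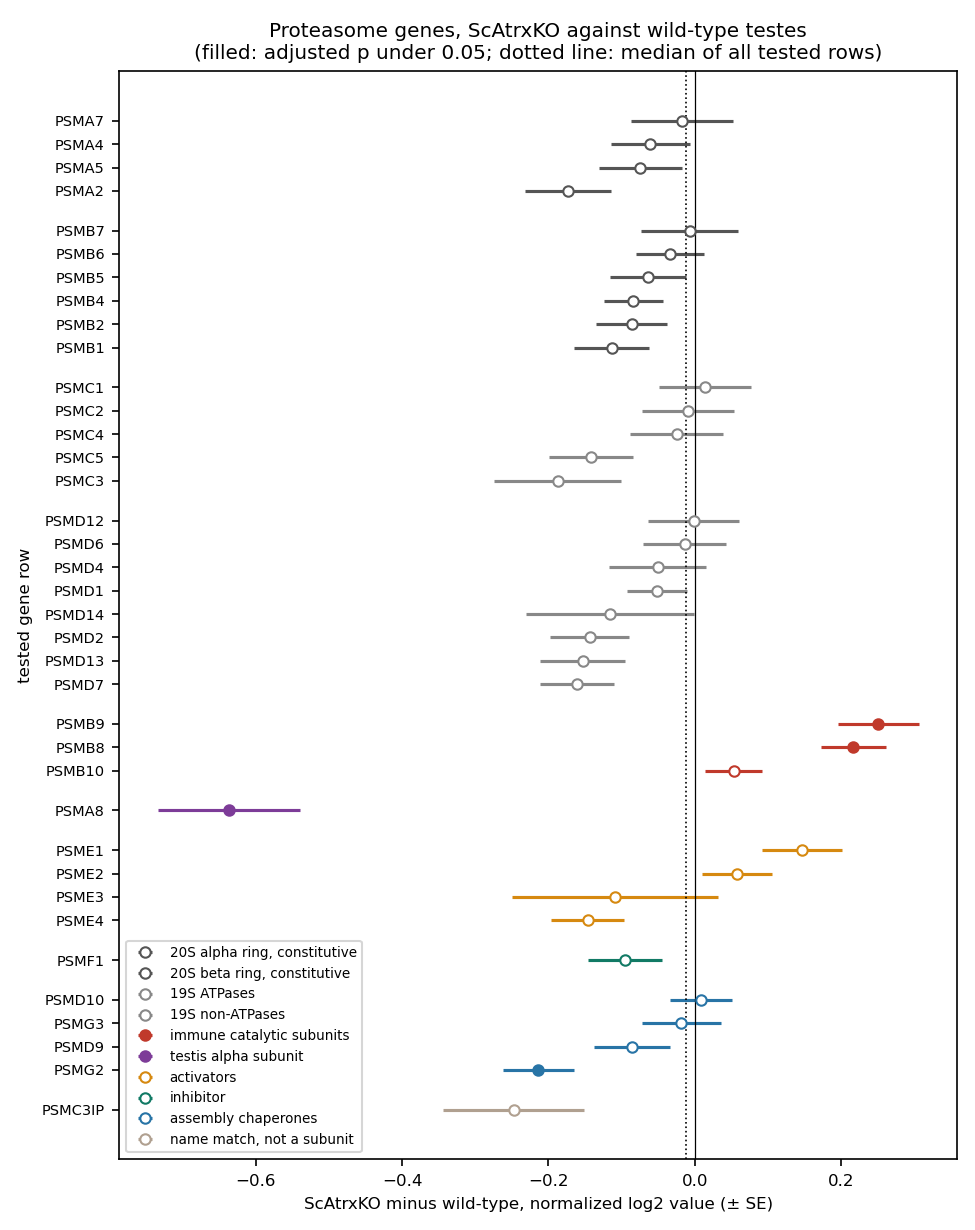
Difference between ScAtrxKO and wild-type testes (x axis, normalized log2 scale, bars SE, n = 3 arrays each) for the 37 tested proteasome rows (y axis), coloured by class. Filled points are at an adjusted p under 0.05 and the dotted line is the median of all tested rows, -0.01. Psma8 lies farthest left at -0.64, Psmb8 and Psmb9 farthest right at 0.22 and 0.25, and 22 of 23 constitutive subunits lie left of 0.

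Of the immune catalytic subunits, Psmb8 and Psmb9 rose in ScAtrxKO testes by less than the 1.5-fold limit, and Psmb10 did not pass the test. Psmb8, which takes the chymotrypsin-like site of Psmb5, had normalized log2 values of 8.14, 8.25 and 8.23 in ScAtrxKO testes, against 7.997, 7.97 and 8.01 in wild-type testes. All ScAtrxKO values were above all wild-type values, and the difference was 0.22 (SE 0.045, adjusted p = 0.0186, limma). Before normalization its intensity was 93.6, 166.7 and 161.8 in ScAtrxKO testes and 64.9, 59.6 and 68.7 in wild-type testes, so ScAtrxKO array 1 lay nearest to the wild-type arrays. It was detected on 3 of 3 ScAtrxKO and 2 of 3 wild-type arrays.

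Psmb9, which takes the place of Psmb6, had values of 8.15, 8.35 and 8.29 in ScAtrxKO testes, against 8.01, 8.03 and 7.99 in wild-type testes. The genotypes again did not overlap, with ScAtrxKO array 1 closest to the wild-type, and the difference was 0.25 (SE 0.056, adjusted p = 0.0244, limma). Its intensity was 95.9, 202.7 and 181.1 in ScAtrxKO testes and 67.7, 73.7 and 65.1 in wild-type testes. Psmb10, the counterpart of Psmb7, had values of 9.60, 9.56 and 9.55 in ScAtrxKO testes and 9.52, 9.51 and 9.52 in wild-type testes. Those values did not overlap either, yet the difference of 0.05 (SE 0.039) did not pass the test (adjusted p = 0.416, limma). Psmb11, the catalytic subunit of the thymus cortex, was detected on 0 of 6 arrays.

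The size of the Psmb8 and Psmb9 differences depended on how dim signals were scaled. Without variance stabilization, on log2 intensities with quantile normalization, they were 0.89 and 0.94, and with neqc 0.12 and 0.14. Psmb8 stayed past the threshold under 11 of 14 alternatives (adjusted p from 0.0064 to 0.0712) and lost its call without ScAtrxKO replicate 2 (0.0701), ScAtrxKO replicate 3 (0.052) or wild-type replicate 2 (0.0712). Psmb9 stayed past it under 8 of 14 (0.00819 to 0.0776), and lost its call under neqc (0.0689) and without ScAtrxKO replicate 2 (0.0776), ScAtrxKO replicate 3 (0.0642) or wild-type replicate 1 (0.0631), 2 (0.0731) or 3 (0.0595).

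**Figure D2:**
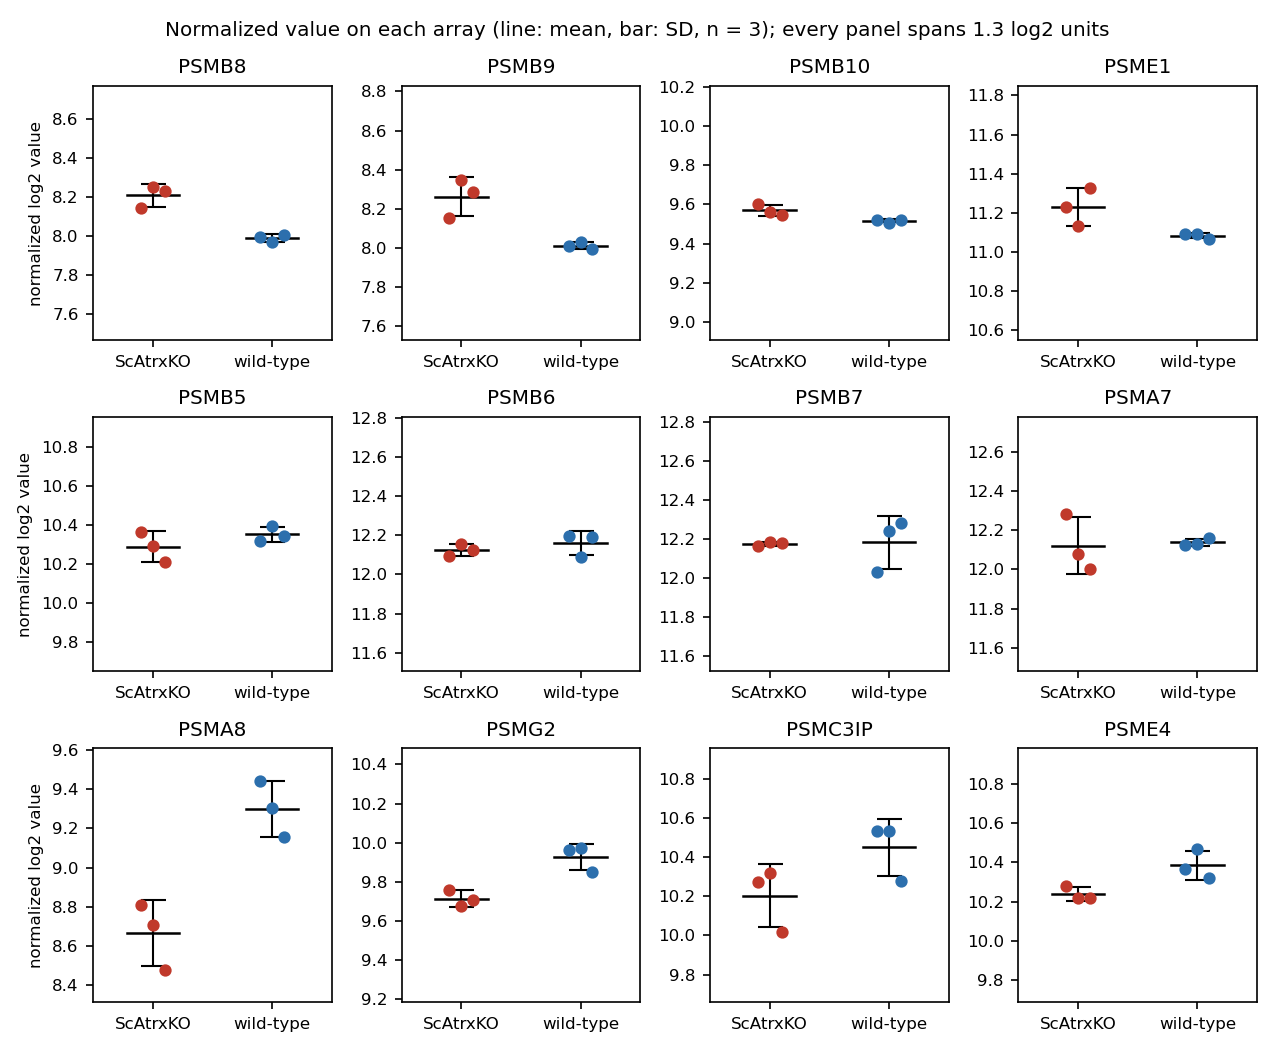
Normalized log2 value on each array (y axis, each panel spanning 1.3 log2 units) of 12 proteasome rows in ScAtrxKO (left) and wild-type (right) testes, with the mean as a line and the SD as a bar (n = 3). The genotypes are apart for PSMB8, PSMB9, PSMB10 and PSME1, with ScAtrxKO above, and for PSMA8, PSMG2 and PSME4, with ScAtrxKO below, and they overlap for PSMB5, PSMB6, PSMB7, PSMA7 and PSMC3IP.

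The constitutive counterparts did not pass the test. Psmb5 had values of 10.36, 10.29 and 10.21 in ScAtrxKO testes and 10.32, 10.39 and 10.35 in wild-type testes, with a difference of -0.06 (SE 0.052, adjusted p = 0.466, limma). The differences of Psmb6 and Psmb7 were -0.03 (adjusted p = 0.692, limma) and -0.01 (0.958). To compare an immune or testis subunit with the subunit it replaces, the 2 log2 values were subtracted on each array. Only the change of this quantity between genotypes is read, since different rows have different probes. For Psmb8 minus Psmb5 it was higher by 0.28 in ScAtrxKO testes, with per-array values of -2.22, -2.04 and -1.98 in ScAtrxKO testes and -2.32, -2.43 and -2.34 in wild-type testes. For Psmb9 minus Psmb6 it was higher by 0.29, with -3.94, -3.81 and -3.84 in ScAtrxKO testes and -4.19, -4.06 and -4.20 in wild-type testes. Neither pair overlapped between the genotypes (two-sided exact permutation p = 0.1 each, adjusted over 4 pairs 0.133), but 3 against 3 arrays cannot give a p below 0.1. Psmb10 minus Psmb7 averaged -2.61 ± 0.038 in ScAtrxKO testes and -2.67 ± 0.14 in wild-type testes (SD, n = 3 each), and the genotypes overlapped (exact permutation p = 0.5).

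**Figure D3:**
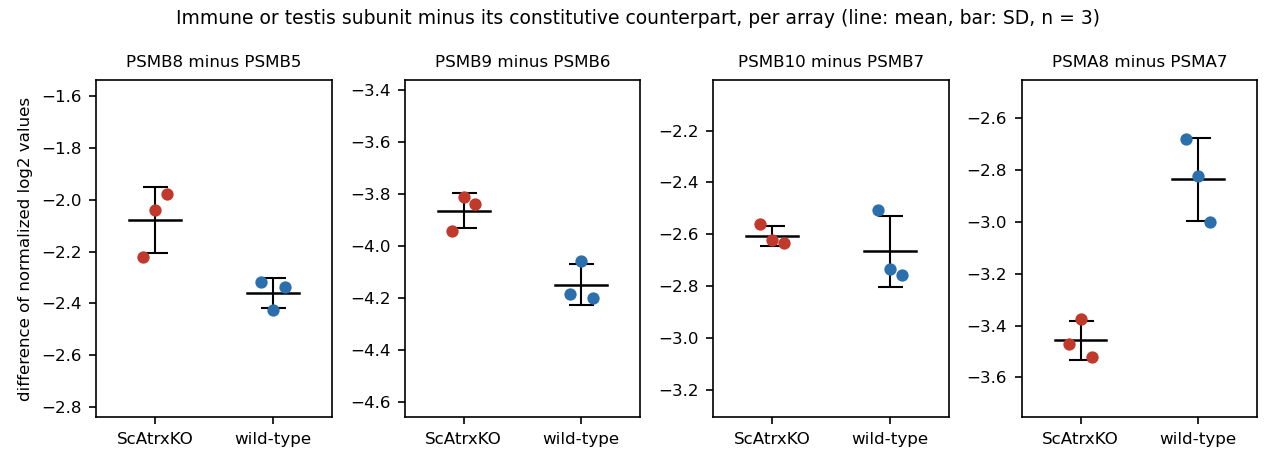
Immune or testis subunit minus its constitutive counterpart on each array (y axis, difference of normalized log2 values) in ScAtrxKO (left) and wild-type (right) testes, with the mean as a line and the SD as a bar (n = 3). PSMB8 minus PSMB5 and PSMB9 minus PSMB6 are higher in ScAtrxKO by 0.28 and 0.29, PSMA8 minus PSMA7 is lower by 0.62, and PSMB10 minus PSMB7 overlaps.

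Psma8, the alpha subunit of meiotic germ cells, fell in ScAtrxKO testes. It had values of 8.81, 8.70 and 8.48 in ScAtrxKO testes, against 9.44, 9.31 and 9.16 in wild-type testes. The highest ScAtrxKO value was below the lowest wild-type value, and the difference was -0.64 (SE 0.097, adjusted p = 0.00588, limma), 0.643 of the wild-type level on the normalized scale. Its intensity was 298.7, 347.8 and 253.6 in ScAtrxKO testes and 611, 545.5 and 471.5 in wild-type testes. The call held under all 14 alternatives (adjusted p from 0.00115 to 0.0448), and the difference was -1.07 on log2 intensities with quantile normalization. Without ScAtrxKO replicate 3 or wild-type replicate 1 it no longer reached the 1.5-fold limit, the smallest difference being -0.54. Psma7, the alpha subunit it replaces, had 12.28, 12.08 and 12.00 in ScAtrxKO testes and 12.12, 12.13 and 12.16 in wild-type testes, which overlap (difference -0.02, adjusted p = 0.905, limma). Psma8 minus Psma7 was -3.47, -3.38 and -3.52 in ScAtrxKO testes and -2.68, -2.83 and -3.00 in wild-type testes, a difference of -0.62 without overlap (exact permutation p = 0.1, adjusted 0.133).

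None of the constitutive subunits passed the test, and their differences were small. Of 31 rows, 23 were tested, and 0 were called higher and 0 lower (limma). At an unadjusted p under 0.05 there were 5, all of them lower: Psma2, Psmc5, Psmd2, Psmd7 and Psmd13. The share of all tested rows at that unadjusted threshold was not counted, and 13% passed even the adjusted one. The 5 are therefore not read as a result. The differences of the 23 ran between -0.19 (Psmc3) and 0.01 (Psmc1), with a median of -0.06 against -0.01 over all tested rows. The difference was below 0 for 22 of 23 (95.7%), against 54.8% of all tested rows. Without overlap between the genotypes were 5 of 23 (21.7%), all with ScAtrxKO below. Of all tested rows, 17.6% lay so, and 33.8% did not overlap in either direction. The median deviation of the 23 from the wild-type mean was -0.04, -0.08 and -0.10 on the ScAtrxKO arrays. It was -0.01, -0.01 and 0.02 on the wild-type arrays, so the arrays of the genotypes did not overlap. These subunits were read on the same arrays and are not independent of each other. The sign rested on the normalization between arrays. With neqc and with quantile normalization of log2 intensities 22 of 23 were below 0, and with median scaling 23 of 23. In mean intensity before normalization 22 of 23 were higher in ScAtrxKO testes, where 2 of the arrays were brighter.

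By role, the alpha ring had 4 of 7 rows tested, with differences between -0.17 (Psma2, adjusted p = 0.0942, limma) and -0.02 (Psma7). The beta ring had 6 of 7 tested, between -0.11 (Psmb1, 0.191) and -0.01 (Psmb7). The ATPases that unfold the substrate had 5 of 6 tested, between -0.19 (Psmc3, 0.201) and 0.01 (Psmc1). The other subunits of the regulatory particle, among them the ubiquitin receptor Psmd4 and the deubiquitinase Psmd14, had 8 of 11 tested, between -0.16 (Psmd7, 0.0765) and -0.0015 (Psmd12). Psmd7 had the lowest adjusted p of the constitutive rows.

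Of the activators, Psme1 and Psme2 form the interferon-induced ring that opens the core, Psme3 forms a nuclear ring and Psme4 serves in the degradation of histones in elongating spermatids. None of the 4 passed the test. Psme1 had values of 11.23, 11.13 and 11.33 in ScAtrxKO testes and 11.09, 11.09 and 11.07 in wild-type testes, which did not overlap (difference 0.15, SE 0.054, adjusted p = 0.118, limma). Psme2 overlapped, with 9.85, 9.79 and 9.81 in ScAtrxKO testes and 9.81, 9.68 and 9.79 in wild-type testes (difference 0.06, adjusted p = 0.484, limma). Psme3 varied most, between 10.37 and 10.89 in ScAtrxKO testes and between 10.49 and 10.87 in wild-type testes (difference -0.11, adjusted p = 0.669, limma). Psme4 had 10.28, 10.22 and 10.22 in ScAtrxKO testes and 10.37, 10.47 and 10.32 in wild-type testes, lower on every ScAtrxKO array (difference -0.15, adjusted p = 0.0961, limma). Psmf1, an inhibitor of the core in vitro, had 9.07, 9.04 and 8.91 in ScAtrxKO testes and 9.12, 9.09 and 9.09 in wild-type testes (difference -0.10, adjusted p = 0.267, limma).

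Among the assembly chaperones Psmg2, which with Psmg1 builds the alpha ring, fell in ScAtrxKO testes. Its values were 9.76, 9.68 and 9.70 in ScAtrxKO testes, against 9.96, 9.97 and 9.85 in wild-type testes, without overlap (difference -0.21, SE 0.049, adjusted p = 0.0274, limma). Before normalization the intensities overlapped, with 790.1, 967.4 and 979.9 in ScAtrxKO testes and 968, 1000.5 and 902.9 in wild-type testes. Its call held under 7 of 14 alternatives (adjusted p from 0.0159 to 0.118). It was lost on log2 intensities with quantile normalization (0.118) and median scaling (0.11), with an intensity trend (0.0529), and without ScAtrxKO replicate 2 (0.0938), ScAtrxKO replicate 3 (0.0675), wild-type replicate 1 (0.0785) or wild-type replicate 2 (0.0995). The alpha ring chaperone Psmg3 (-0.02, adjusted p = 0.866, limma) and the ATPase ring chaperones Psmd9 (-0.09, 0.328) and Psmd10 (0.01, 0.921) did not pass the test. Psmc3ip, which helps the meiotic recombinase Dmc1 pair homologous chromosomes, had 10.27, 10.32 and 10.02 in ScAtrxKO testes and 10.53, 10.54 and 10.28 in wild-type testes. The values overlapped, since wild-type array 3 lay between ScAtrxKO arrays 1 and 2, and the difference of -0.25 (SE 0.096) did not pass the test (adjusted p = 0.134, limma).

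**Figure D4:**
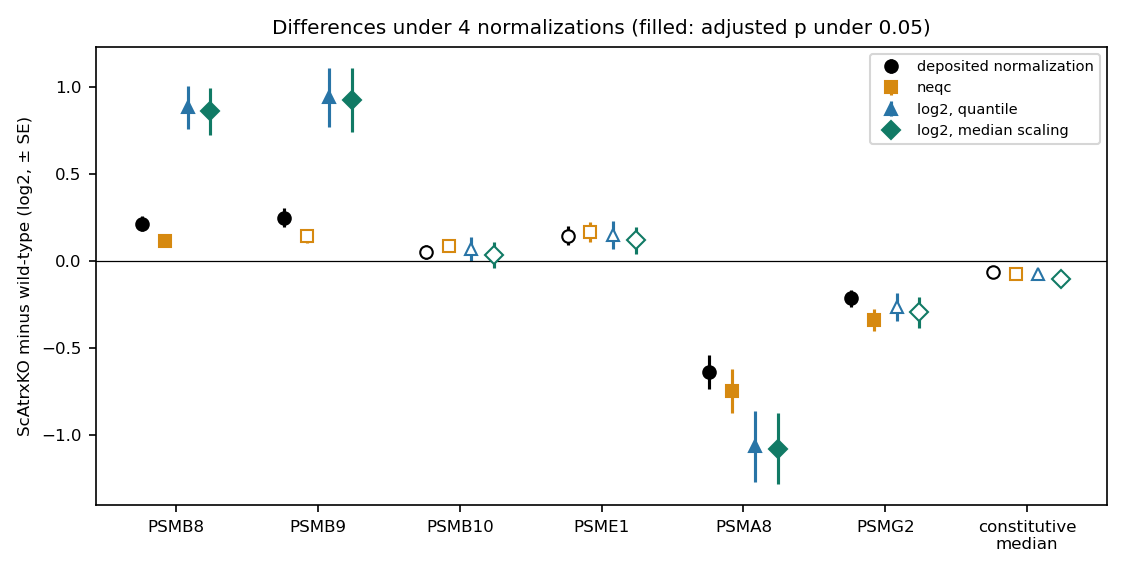
Difference between ScAtrxKO and wild-type testes (y axis, log2, bars SE, n = 3 arrays each) of 6 proteasome genes and the median of the constitutive subunits (x axis) under 4 normalizations, filled at an adjusted p under 0.05. Every value keeps its side of 0, PSMB8 and PSMB9 range from 0.12 and 0.14 under neqc to 0.89 and 0.94 on quantile-normalized log2 intensities, and PSMB10 and PSME1 are unfilled throughout.

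The 10 untested members were of different kinds. Psma1, Psma3, Psma6, Psmb11, Psmc6 and Psmd3 had mean intensities between -16.9 and 13.4 in ScAtrxKO testes and between -10.8 and 7.13 in wild-type testes, and no level can be read for them. Psmb3, Psmd5, Psmd8 and Psmd11 were bright but kept detection p-values above 0.01 on every array. Psmb3 averaged an intensity of 2883 ± 427 in ScAtrxKO testes and 2912 ± 218 in wild-type testes (SD, n = 3 each), with a lowest detection p of 0.0169. Its normalized values of 11.21, 11.20 and 11.21 in ScAtrxKO testes lay below the 11.44, 11.30 and 11.50 of wild-type testes, and with every row tested the difference was -0.21 (SE 0.049, adjusted p = 0.0617, limma). In that fit Psmd5, Psmd8 and Psmd11 differed by -0.01, 0.05 and -0.02 (lowest adjusted p 0.831, limma). Among the tested members, Psmb2 passed the detection limit on 0 ScAtrxKO and 2 wild-type arrays at a mean intensity of 4170 in ScAtrxKO testes and 3873 in wild-type testes, and Psmf1 on 1 ScAtrxKO and 0 wild-type arrays at 458.2 in ScAtrxKO testes and 442.2 in wild-type testes. In all, 367 rows that the filter removed had a mean intensity above 200.

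Genes that act with the proteasome were read from a list of 20, of which 17 were on the array and 14 tested. The shuttle factor Ubqln4 was higher, with a difference of 0.20 (SE 0.044, adjusted p = 0.0233, limma), and AI314180, the mouse gene of the adaptor Ecm29 that tethers core and regulatory particle, was lower, with -0.30 (SE 0.067, adjusted p = 0.0246, limma). Both calls were lost on log2 intensities with quantile normalization (adjusted p = 0.0672 for Ubqln4 and 0.107 for AI314180, limma) and median scaling (0.0753 and 0.0891), and without ScAtrxKO replicate 1 (0.0667 and 0.0625), ScAtrxKO replicate 2 (0.0561 and 0.0559), wild-type replicate 1 (0.0549 and 0.0684) or wild-type replicate 2 (0.0862 and 0.0902). The call of AI314180 was also lost under neqc (0.0586). The other 12 did not pass, and the list's median was -0.06. Of 15 genes of MHC class I antigen processing and interferon regulation, 14 were on the array and 9 tested, with 1 higher and 0 lower and a median of 0.13. Tap1, taken up here for the window it shares with Psmb9 after its values were seen, was not tested, as its lowest detection p was 0.0128. Its mean intensity was 35.6 in ScAtrxKO testes and 6.37 in wild-type testes.

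Of 24 meiotic prophase genes, a list that includes Psmc3ip, 22 were on the array and 16 tested, with 1 higher, 2 lower and a median of -0.14. Sycp1, of the synaptonemal complex, had 8.35, 8.43 and 8.35 in ScAtrxKO testes, against 9.09, 8.87 and 8.66 in wild-type testes (difference -0.50, SE 0.098, adjusted p = 0.0162, limma). Its call was lost under neqc (adjusted p = 0.0828, limma) and without wild-type replicate 2 (0.0607). Sycp2, of its lateral element, was detected on 0 ScAtrxKO and 2 wild-type arrays, so it entered the test only through the genotype where it was brighter. Its difference was -0.44 (SE 0.089, adjusted p = 0.0184, limma), taken with ScAtrxKO signals that did not pass the detection limit. That call was kept under 7 of 13 alternatives (adjusted p from 0.00535 to 0.0756), and was lost under neqc (0.0756), on log2 intensities with quantile normalization (0.061) and median scaling (0.0609), and without ScAtrxKO replicate 2 (0.0553), ScAtrxKO replicate 3 (0.0505) or wild-type replicate 2 (0.066). Rec8, a meiotic cohesin, was higher, with 9.84, 9.89 and 9.68 in ScAtrxKO testes and 9.33, 9.34 and 9.26 in wild-type testes (difference 0.49, adjusted p = 0.00232, limma). Sycp3 and Dmc1 were undetected on all 6 arrays.

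Markers of several cell types differed between the genotypes, and in whole testis fewer cells of a type and less RNA per cell cannot be told apart. The marker lists were chosen with earlier results of these data known. Their counts beside the share of all tested rows therefore describe the lists and are no test. Beside Psmb8 and Psmb9, 14 of 15 tested macrophage and leukocyte markers were higher, against 7.47% of all tested rows. Among them were Cx3cr1 (0.64), Fcer1g (0.76), Lyz2 (0.95) and Mrc1 (0.82). The count was 12 with neqc, 11 with quantile-normalized log2 intensities and with median scaling, and 11 to 14 with 1 array left out. Csf1r and Aif1, counted among the 14, were detected on 0 wild-type arrays and were tested only through the ScAtrxKO arrays, and of the 13 markers detected in both genotypes 12 were higher. The median of the list was 0.38, and it was 0.21 with neqc and 1.304 with quantile-normalized log2 intensities. The summed intensity, which is not normalized between arrays and is read on 2 brighter ScAtrxKO arrays, was taken over 18 rows and lay between 6700 and 10090 on the ScAtrxKO arrays and between 2665 and 3804 on the wild-type arrays, with Ptprc, Cd53 and Cd163 undetected. Of 8 lymphocyte markers only Cd3e was detected, and it did not pass the test. The lymphocyte sum was 137 to 248.6 on the ScAtrxKO arrays and 103.2 to 184.3 on the wild-type arrays. The part of these cells in the Psmb8 and Psmb9 results was not tested.

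Beside Psma8, 6 of 11 tested germ cell markers were lower, against 5.5% of all tested rows, and 0 higher. This list and the other lists of this paragraph were likewise chosen with earlier results known. Among the lower ones were Kit (-0.35), Piwil2 (-0.54) and Tex14 (-0.38). Stra8 (0.27, adjusted p = 0.11, limma) and Gfra1 (0.02, 0.886) lay above 0 and did not pass the test. With 1 array left out, 5 to 6 were lower and 0 to 1 higher. Sall4 (-0.71) and Nanos3, counted among the 6, were detected on 0 ScAtrxKO arrays and were tested only through the wild-type arrays. Their signal levels differed. Sall4 averaged an intensity of 530.4 in ScAtrxKO and 885 in wild-type testes, and Nanos3 23.9 in ScAtrxKO and 58.8 in wild-type testes. Nanos3 kept its call under 6 of 14 alternatives. Of the 8 germ cell markers detected in both genotypes, 4 were lower. Their summed intensity over 13 rows was 9791 to 12550 on the ScAtrxKO arrays and 12990 to 13110 on the wild-type arrays, with Ddx4 and Mael undetected. The summed intensity of the meiotic list was 12790 to 16710 on the ScAtrxKO arrays and 13020 to 15130 on the wild-type arrays. The part of germ cell number in the Psma8 result was not tested. Of the other lists, 3 of 6 Leydig cell markers were higher (Cyp11a1, Insl3 and Lhcgr) and 6 of 8 endothelial markers were higher (Cdh5, Cldn5, Tek and Ly6c1 among them), with 0 lower in either. Of all tested rows, 7.47% were higher. Lhcgr was detected on 0 wild-type arrays and was tested only through the ScAtrxKO arrays. The endothelial count was 3 with median scaling, without ScAtrxKO replicate 2 or without wild-type replicate 2, and 4 with quantile-normalized log2 intensities. Their summed intensities were 4709 to 10910 (Leydig) and 2002 to 2821 (endothelial) on the ScAtrxKO arrays, and 2891 to 4143 (Leydig) and 1338 to 1411 (endothelial) on the wild-type arrays. Insl3 averaged an intensity of 3640 in ScAtrxKO testes and 1908 in wild-type testes, and Cyp17a1, which did not pass the test (adjusted p = 0.218, limma), 3471 in ScAtrxKO testes and 1312 in wild-type testes. Of 11 Sertoli cell markers, Trf was higher (0.39) and 0 were lower. The call of Trf was lost with quantile-normalized log2 intensities (adjusted p = 0.0608, limma), with median scaling (0.0699), and without ScAtrxKO replicate 2 (0.0503) or wild-type replicate 2 (0.0577). The sum of the Sertoli cell markers was 30690 to 40890 on the ScAtrxKO arrays and 31390 to 33440 on the wild-type arrays.

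**Figure D5:**
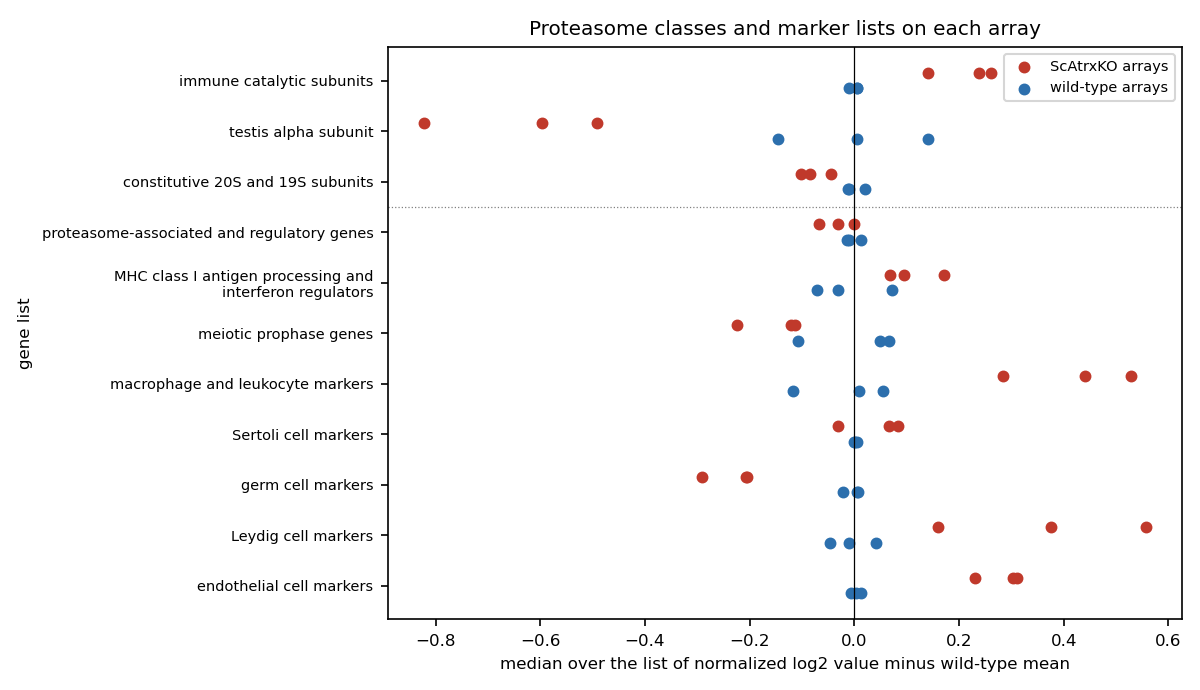
Median over each class or list of the normalized log2 value minus the wild-type mean (x axis) on the 3 ScAtrxKO arrays and the 3 wild-type arrays, by class or list (y axis, proteasome classes above the dotted line). The immune subunits, at 0.14, 0.26 and 0.24 on the ScAtrxKO arrays, lie above 0. So do the macrophage (0.28, 0.44 and 0.53), endothelial (0.23, 0.30 and 0.31), Leydig cell and MHC class I lists. Psma8 lies below 0 on these arrays, as do the germ cell, meiotic and proteasome-associated lists and the constitutive subunits. The MHC class I list overlaps between the genotypes, with 0.094, 0.171 and 0.068 on the ScAtrxKO arrays and 0.072, -0.032 and -0.071 on the wild-type arrays. So does the proteasome-associated list, with -0.0006, -0.032 and -0.066 on the ScAtrxKO arrays and 0.013, -0.010 and -0.014 on the wild-type arrays.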

How the data were processed

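Gene expression was measured in 3 ScAtrxKO and 3 wild-type testes, 1 array each. Background subtraction and averaging of probes per gene row were done by the authors in GenomeStudio (version not given in the sources used here), and the deposited intensity of each row and array comes with a detection p-value. For the second deposited table the authors used lumi to stabilize the variance and quantile normalize, which gave values on a log2 scale. Columns are named by genotype and replicate number, and those named M were read as ScAtrxKO. The columns of unmapped samples numbered 0. The authors' deposited sheets of limma fold changes and PANTHER terms were not used.

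Rows with a detection p under 0.01 on at least 1 array were fitted with limma 3.58.1 (lmFit and eBayes, genotype the only term) in R 4.3.3, with Benjamini-Hochberg adjustment over all tested rows, and calls were made at an adjusted p under 0.05. Precision is limited by the number of arrays. The table of values held by GEO gave the same numbers for the 30767 rows it shares (largest difference 0), and so was no separate alternative. The alternatives were neqc (offset 16), log2 intensities floored at 1 with quantile normalization or median scaling, other detection filters, a block for the replicate number, array weights, an intensity trend, the omission of each array, and, for the counts of members alone, members without Psmc3ip. Neqc was run on intensities whose background had already been subtracted. It also relied on the deposited detection p-values, which did not follow the intensity across rows, so its values are read with that limit.

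The 47 members matched RefSeq symbols or synonyms, and their roles are textbook knowledge. The genes named are members past the adjusted p, all members outside the constitutive classes, Psma7, Psmb5, Psmb6, Psmb7, the extremes of each constitutive class, and up to 4 called genes of each list. Some genes that this rule takes are left out of the text. Members and lists were chosen with earlier results of these data known. Promoter sequences are from RefSeq (GRCm38.p6), read with Python 3.11.15.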

Additional observations from a re-analysis of the deposited data

How the results depend on the processing

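Psma8 stayed lower and past the threshold under all 14 alternatives, and Psmb8, Psmb9 and Psmg2 kept their direction under all 14, with the calls they lost given above. Over all tested rows, 973 were higher and 717 lower, and these numbers were 687 and 425 under neqc, 547 and 227 with quantile-normalized log2 intensities and 520 and 253 with median scaling. Members called higher numbered 1 under neqc, where Psmb9 was 0.14 (adjusted p = 0.0689, limma). Members called lower numbered 1 with quantile-normalized log2 intensities, with median scaling and with an intensity trend. Members past the fold limit numbered 3 with quantile-normalized log2 intensities and with median scaling. The constitutive median was -0.10 with median scaling, which moved the median of all tested rows to -0.06. Psmc1 was -0.025 with median scaling and -0.0055 with array weights, and Psmd10 was -0.016 with median scaling.

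Proteasome-associated genes numbered 0 higher with quantile-normalized log2 intensities and with median scaling, and 0 lower with these and with neqc. MHC class I genes numbered 2 higher with no detection filter. Meiotic genes numbered 0 lower under neqc, 1 with quantile-normalized log2 intensities, with median scaling and with detection on at least 3 arrays, and 5 with the replicate block. The cause of these changes was not tested.

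Leaving out each array in turn gave 0 to 2 members higher, 1 to 2 lower and 0 to 1 past the fold limit, 0 constitutive subunits in either direction, associated genes 0 to 2 higher and 0 to 1 lower, MHC class I genes 1 to 2 higher and meiotic genes 0 to 3 lower. The difference was 0.20 to 0.25 for Psmb8, 0.21 to 0.31 for Psmb9, -0.71 to -0.54 for Psma8, -0.25 to -0.19 for Psmg2, and -0.089 to -0.057 for the constitutive median. It changed sign for Psma7 (-0.098 to 0.043), Psmb7 (-0.083 to 0.041), Psme3 (-0.25 to 0.012), Psmd10 (-0.019 to 0.028), Psmg3 (-0.048 to 0.032), Psmc1 (-0.056 to 0.063) and Psmd12 (-0.051 to 0.046).

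With the replicate number as a block, Psmb8, Psmb9, Psma8 and Psmg2 kept their calls (adjusted p = 0.039, 0.0327, 0.00124 and 0.0429, limma) and Psmc3ip gained one (-0.25, adjusted p = 0.0196, limma). Same-numbered arrays correlated at 0.0029, 0.047 and 0.08 in their deviations from the genotype means, so the numbers are not read as pairs. Dim signal limits Psmb8 and Psmb9, whose size differs between scalings.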
